A study of Saccharomyces cerevisiae with 13 samples.

Results

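The comparison set wild-type (WT) yeast that carried an empty expression vector against WT yeast that carried no plasmid, neither labelled as treated with caffeine. It used 5 of the 13 libraries of the series: the 3 libraries WT1 to WT3, whose genotype is WT pRS426ADH, and the 2 libraries Wildtype-control-1 and Wildtype-control-2, whose genotype is WT. Libraries were taken by these labels and by no measured value. All 5 came from *Saccharomyces cerevisiae* BY4741, a haploid MAT a laboratory strain. The study lists it as his3Δ1 leu2Δ0 lys2Δ0 ura3Δ0, and none of the 5 libraries was labelled as treated. The vector pRS426ADH is a high copy number shuttle plasmid with URA3 as its selectable marker, a 2-micron origin and the ADH1 promoter, and it carried no insert in these cells. The rest of the series held 3 libraries of the *yap1* mutant with the empty vector, 3 of the Yap1 overexpression strain and 2 of WT without plasmid treated with 50 mM caffeine. The labels allow either rich YEPD or minimal SD medium and do not say which library was grown in which. Plasmid, any difference in medium and the preparation of the libraries cannot be told apart, so each value below is a difference between 2 baseline cultures. Nothing in the labels says that replicates were separate cultures, and the p-values measure the spread between these libraries.

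Several regulatory circuits of yeast read nutrient supply, and their genes are the ones described here. The activator Zap1 turns on zinc uptake genes through the zinc-responsive element when zinc is scarce. Ino2 and Ino4 activate genes of phospholipid synthesis through an inositol-responsive element, and the repressor Opi1 holds them down when inositol is plentiful. Gcn4 activates amino acid synthesis when amino acids run short, and Bas1 with Pho2 activates purine synthesis when adenine is lacking. Both bind sites that contain TGACTC. Msn2 and Msn4 drive the general stress genes, among them those for glycogen and trehalose, while genes for ribosomes are high during fast growth.

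Each library was a list of read counts per gene from 3′ mRNA sequencing, in which an oligo-dT primer starts the copy at the poly(A) tail. The vector libraries held 25609092, 21384429 and 24101991 counts and the no-plasmid libraries 17249123 and 17387215. Rows of ribosomal RNA took 62.3% to 75.0% of the counts with the vector and 14.7% to 18.4% without plasmid, and they were left out. That left 6408997 to 9093893 counts per vector library and 14067330 to 14838853 per library without plasmid. Levels are given as CPM, the usual scaling of counts to a library total, here over the remaining rows and with the trimmed mean of M-values (TMM). A difference is the log2 value of vector minus no plasmid with its standard error (SE) from edgeR. A lower level cannot show whether fewer cells made an RNA or each cell made less of it.

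WT vector replicate 2 stood apart from the other vector libraries. Of 5385 genes that averaged 10 CPM or more, 204 lay more than 4-fold below both other vector libraries in replicate 2 and 2 lay as far above. The same count was 1 gene for replicate 1 and 0 for replicate 3. CWP2, a cell wall mannoprotein, was at 174 CPM in replicate 2 and at 6764 and 6472 CPM in replicates 1 and 3. TPI1, triosephosphate isomerase, was at 119 CPM against 4676 and 5061 CPM. The 10 histone genes had a median log2 difference of -2.71 between replicate 2 and the other vector libraries. The biological coefficient of variation was 38.3% over the 3 vector libraries and 20.4% without replicate 2, against 24.3% without plasmid. The file of replicate 2 also carries the gene names of the no-plasmid files, whereas every other plasmid file carries an older set of names. Values without this library are therefore given beside the results.

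**Figure D1:**
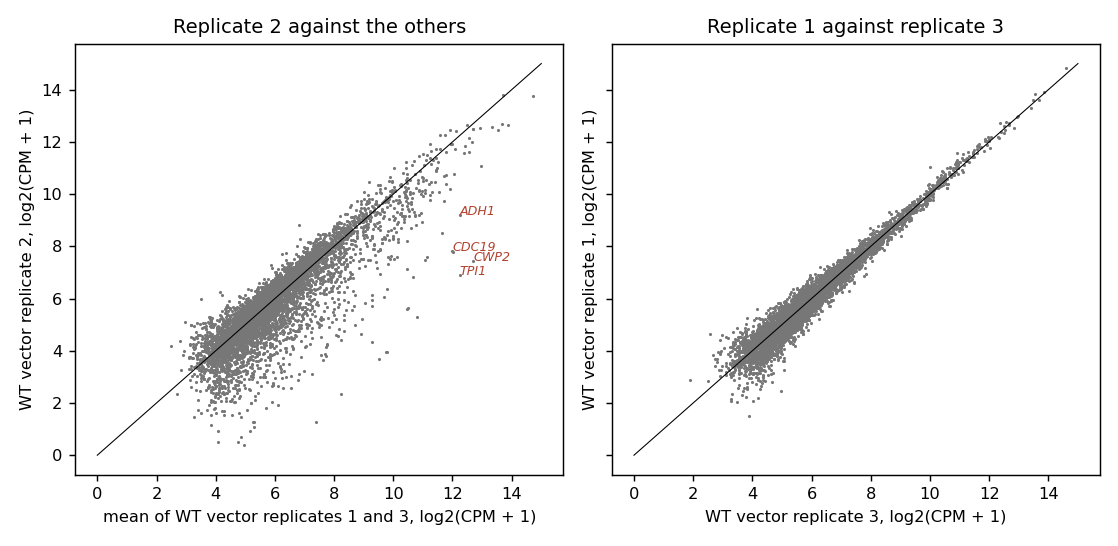
Levels of the 5385 genes that averaged 10 CPM or more, as log2(CPM + 1). The left panel sets WT vector replicate 2 against the mean of replicates 1 and 3, with a wide group of genes below the line of equality that includes CWP2, TPI1, ADH1 and CDC19, and the right panel sets replicate 1 against replicate 3, where points stay close to the line.

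The labels were checked against the plasmid marker and the mating type genes. URA3 on chromosome V (R64 positions 116167 to 116970), which encodes orotidine phosphate decarboxylase and is deleted in the strain, had 93913, 141516 and 113124 counts in the vector libraries. It had 0 counts in both libraries without plasmid. The 6 other plasmid libraries held 44722 to 146805 counts of URA3, and the caffeine-treated libraries held 0. The level with the vector was 13677 CPM ± 1460 (SD, n = 3), which is at least 115000-fold higher than the floor that 3 counts over the no-plasmid group allow (0.119 CPM). LEU2 and MET17 were at 0 counts in all 13 libraries. LYS2, which the study lists as deleted, had 608 to 702 counts with the vector and 400 to 517 without plasmid, so this part of the listed genotype went against the counts. HIS3, of which the his3Δ1 allele keeps a part, was at 116, 192 and 121 CPM with the vector and 147 and 149 CPM without plasmid. The 7 genes of a cells summed to 1140 to 3007 CPM with the vector and 3847 to 4684 CPM without plasmid, on a scale set over all 13 libraries. The 4 genes of alpha cells summed to 30.8 to 39.5 CPM and 27.5 to 41.4 CPM in the same groups, none of them at 0 in any library. Of the alpha-cell genes, STE3, the receptor that a-factor binds, had 2 to 25 counts with the vector and 6 and 10 without plasmid.

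Rows next to the chromosomal sources of vector parts were among the largest differences. YOL085C, a gene of unknown function, was at 287, 443 and 263 CPM with the vector and at 1.50 and 4.39 CPM without plasmid. The log2 difference was 6.80 (SE 0.61, edgeR adjusted p = 0.0074) and was 6.51 without replicate 2. It lies on chromosome XV (R64, 161673 to 162014, minus strand), 1078 bases upstream of the coding start of ADH1, the gene of the main fermentative alcohol dehydrogenase whose promoter the vector carries. YOL085W-A, which had no partner in the annotation used here, followed the same order of libraries with 296, 478 and 273 CPM against 1.16 and 4.84 CPM. UTR1, which encodes an NAD kinase, was at 1400, 2416 and 1375 CPM with the vector and at 60.3 and 47.4 CPM without plasmid. Its log2 difference was 5.01 (SE 0.45, edgeR adjusted p = 0.0074). UTR1 lies on chromosome X (526884 to 528476, minus strand) and faces CYC1 end to end across a gap of 219 bases, and vectors of this family end the expression cassette with the CYC1 terminator. The rows of ADH1 and CYC1 themselves were not called, with log2 differences of -1.02 (SE 0.78, edgeR adjusted p = 0.49) and -0.78 (SE 0.47, edgeR adjusted p = 0.37). ADH1 was at 4539, 589 and 5202 CPM against 7223 and 6757 CPM. Without replicate 2 ADH1 was called lower, at -0.55 (edgeR adjusted p = 0.030), and CYC1 was not, at -0.43 (edgeR adjusted p = 0.20). YOL085C was at 129 to 303 CPM and UTR1 at 1175 to 1514 CPM in the 6 other plasmid libraries, and at 2.13 to 7.58 CPM and 33.6 to 34.5 CPM in the caffeine-treated libraries without plasmid. The plasmid sequence was not used here, so whether these counts came from the plasmid was not tested.

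Over the whole table, 6703 genes were tested with edgeR's quasi-likelihood test and Benjamini-Hochberg adjustment at 0.05. With the vector 213 genes were higher (3.18% of those tested) and 93 were lower (1.39%), and the median log2 difference of all genes was 0.03. The libraries of both groups did not overlap in any of these 306 genes. Such a separation was common in the table, with 1477 genes entirely higher (22.0%) and 1505 entirely lower (22.5%). An unadjusted p under 0.05 was reached by 1578 genes. Without WT vector replicate 2 the counts were 608 higher (9.11% of 6673 genes) and 589 lower (8.83%), and all 306 genes were called again in the same direction. Leaving out any other library instead left 2 to 13 called genes. CHA1 and URA3 were called in each of these cases. Scaling by library size alone shifted the median of all genes to 0.36 and turned the split of calls from 69.6% higher to 92.1% higher. The shares of all genes given above are the background for the list counts below.

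**Figure D2:**
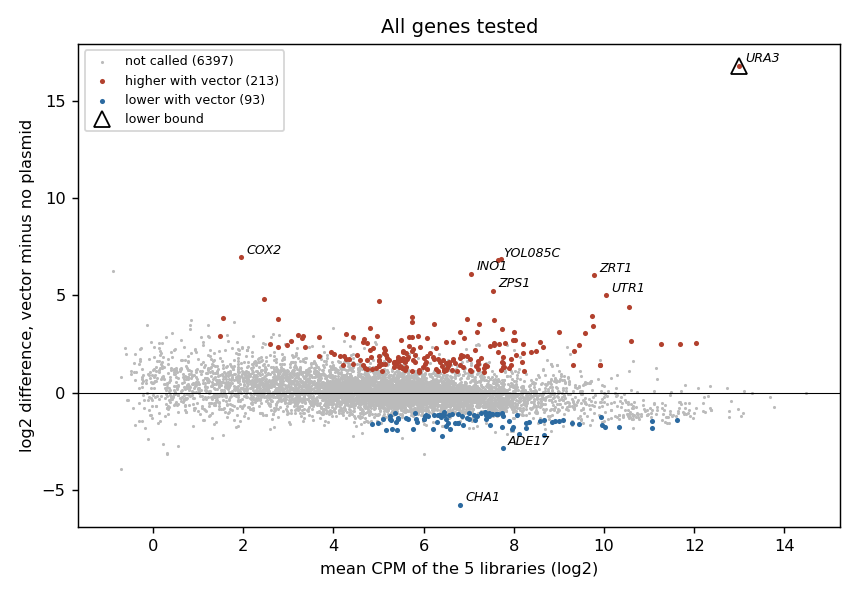
Log2 difference, vector minus no plasmid, of each of the 6703 genes tested against its mean level over the 5 libraries. Red points are the 213 genes called higher and blue points the 93 called lower, and the open triangle marks URA3 at its lower bound of 16.81 because it had 0 counts without plasmid.

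Zinc genes were higher with the vector where they were called. ZRT1, the high-affinity zinc transporter of the plasma membrane, was at 2103, 585 and 1654 CPM with the vector and at 22.3 and 21.8 CPM without plasmid. Every vector library was far above both others, with replicate 2 the lowest. The log2 difference was 6.04 (SE 0.68, edgeR adjusted p = 0.012) and 6.39 without replicate 2. ZPS1, a cell surface protein known to respond to zinc, was at 317, 330 and 261 CPM against 7.40 and 8.54 CPM, a log2 difference of 5.24 (SE 0.30, edgeR adjusted p = 0.00097). ADH4, an alcohol dehydrogenase made at low zinc, had a log2 difference of 2.79 (SE 0.27), and ZRT3, which releases zinc from the vacuole, one of 1.17 (SE 0.22). ZAP1 itself was at 38.5, 22.3 and 28.8 CPM against 10.8 and 4.92 CPM, and its edgeR adjusted p of 0.059 missed the threshold. ZRT2, the low-affinity transporter, was at 280, 346 and 305 CPM against 141 and 151 CPM with an edgeR adjusted p of 0.053. ZRC1, IZH1 and IZH2, which act in zinc storage and homeostasis, had log2 differences of 0.22 to 0.29 and overlapping libraries. In all, 4 of the 18 zinc and copper genes were higher, against 3.18% of all genes, none was lower and their median was 0.61. Without replicate 2, 8 were higher, against 9.11% of all genes, and the median was 0.74. The CUP1-1 and CUP1-2 rows, near-identical copies of the copper metallothionein gene, cannot be separated by counting and were not called.

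Promoters of zinc genes are shown for a sequence feature that took no part in the test of levels. The 500 bases before the start codon were searched on both strands for the zinc-responsive element consensus, which held in 20 of 5981 promoters (0.334%). It was present in ZRT1, ZRT2, ZRT3, ZAP1, ZPS1 and IZH1, 6 of the 9 genes of the Zap1 response searched. These 9 genes were picked as known members of that response, so the share with a match is no independent result. ZRT1 had 3 matches, ZPS1 and ZRT2 had 2, and the other genes had 1. The windows below are from the R64 genome, 5′ to 3′ on the strand of the gene, with the match in capitals.
ZRT1 (chrVII:20729-20829, plus strand, match 204 to 194 bases before the start codon): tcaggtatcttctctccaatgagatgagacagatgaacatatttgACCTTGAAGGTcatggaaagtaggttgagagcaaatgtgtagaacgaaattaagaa
ZPS1 (chrXV:34284-34384, plus strand, matches ending 319 and 304 bases before the start codon): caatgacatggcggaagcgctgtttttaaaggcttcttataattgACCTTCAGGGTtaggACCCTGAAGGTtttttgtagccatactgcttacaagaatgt
ZAP1 (chrX:333162-333262, minus strand, match 144 to 134 bases before the start codon): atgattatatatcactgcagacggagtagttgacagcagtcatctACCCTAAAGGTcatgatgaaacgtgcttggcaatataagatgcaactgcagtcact
ADH4 was higher without a match in its window, whereas ZRT2, ZAP1 and IZH1 had matches and were not called. A match is a description of letters and not evidence of binding.

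**Figure D3:**
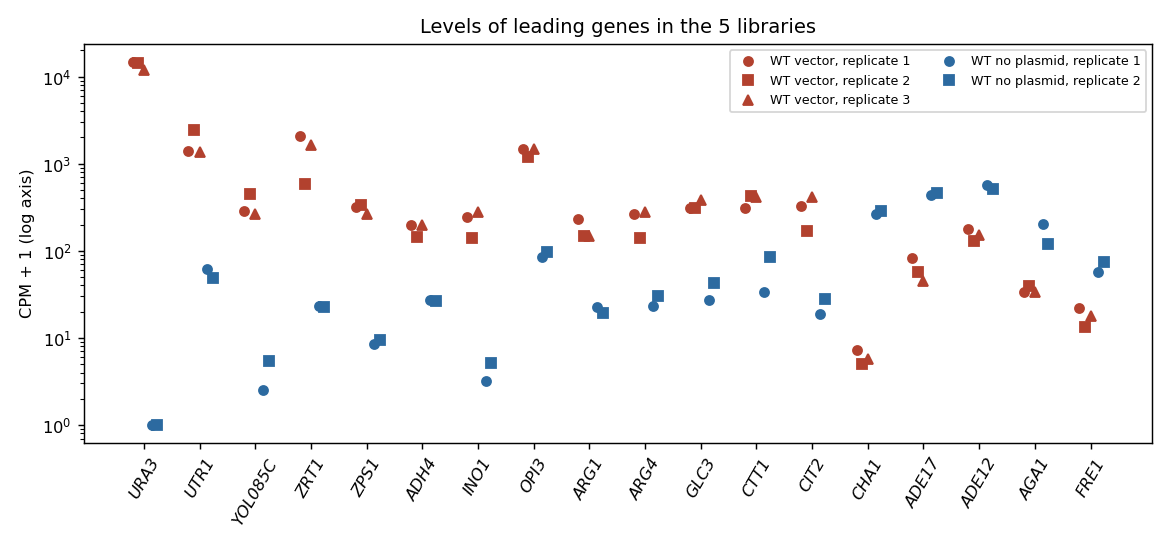
Level of 18 leading genes in each of the 5 libraries, as CPM + 1 on a log axis, with red symbols for the vector libraries and blue symbols for those without plasmid. URA3 to CIT2 were higher in every vector library, and CHA1, ADE17, ADE12, AGA1 and FRE1 were lower in every vector library.

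Genes for inositol and phospholipid synthesis were higher with the vector where they were called. INO1, inositol phosphate synthase, was at 243, 138 and 278 CPM with the vector and at 2.16 and 4.16 CPM without plasmid. The log2 difference was 6.11 (SE 0.52, edgeR adjusted p = 0.0071) and 6.33 without replicate 2. OPI3, which methylates phospholipids on the way to phosphatidylcholine, was at 1457, 1193 and 1454 CPM against 84.9 and 95.7 CPM, a log2 difference of 3.92 (SE 0.32, edgeR adjusted p = 0.0071). HNM1, the choline transporter, CKI1, choline kinase, and PSD1, phosphatidylserine decarboxylase, had log2 differences of 1.40, 1.40 and 1.24. In all, 5 of 16 genes of this group were higher, against 3.18% of all genes, and none was lower. The median was 1.16 with and without replicate 2. Without that library 8 were higher, against 9.11% of all genes. ITR1, the inositol transporter, was at 1092, 377 and 1079 CPM against 172 and 168 CPM, with an edgeR adjusted p of 0.053 that became 0.00021 without replicate 2. CHO1, phosphatidylserine synthase, was at 478, 181 and 527 CPM against 93.9 and 131 CPM, with an edgeR adjusted p of 0.085 that became 0.0013. CHO2, the other phospholipid methyltransferase of this route, had a log2 difference of -0.08 and overlapping libraries.

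The letters CATGTGAA, the core of the inositol-responsive element, were searched in the same windows on both strands and were found in 86 of 5981 promoters (1.44%). They were found in 9 of the 16 promoters of the group: INO1, ITR1 and CHO2 with 2 matches each, and INO2, INO4, CHO1, HNM1, EKI1 and CKI1 with 1 each. OPI3 and PSD1 were higher with no match, and CHO2 had matches and was not called. The INO1 windows are shown because that gene had the largest difference in the group. Capitals mark the core, which reads TTCACATG where it lies on the other strand.
INO1, farther match (chrX:136124-136221, minus strand, 243 to 236 bases before the start codon): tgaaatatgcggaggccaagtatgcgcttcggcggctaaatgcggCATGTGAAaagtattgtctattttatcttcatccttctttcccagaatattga
INO1, nearer match (chrX:136061-136158, minus strand, 180 to 173 bases before the start codon): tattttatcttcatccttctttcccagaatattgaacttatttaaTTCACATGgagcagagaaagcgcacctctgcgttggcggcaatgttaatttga

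Genes of amino acid synthesis differed by pathway, with arginine the highest. ARG1, argininosuccinate synthetase, was at 229, 145 and 147 CPM with the vector and at 21.9 and 18.1 CPM without plasmid, a log2 difference of 3.12 (SE 0.32, edgeR adjusted p = 0.0096). ARG4, which cleaves argininosuccinate to arginine, was at 263, 141 and 275 CPM against 22.3 and 29.5 CPM, a log2 difference of 3.13 (SE 0.39, edgeR adjusted p = 0.016). ARG7, which makes ornithine in mitochondria, had a log2 difference of 2.62 (SE 0.31). Of 12 arginine and ornithine genes, 3 were higher and none was lower, 9 had all vector libraries above both others, and the median was 1.13. Over all genes 3.18% were called higher and 22.0% lay entirely higher. Without replicate 2, 8 of the 12 were higher. Elsewhere 1 gene was higher in each of 4 routes. These were LYS1 of 9 lysine genes, LEU1 of 12 branched chain genes, TRP5 of 15 aromatic genes and SAM3, an S-adenosylmethionine permease, of 34 sulfur and methionine genes, with log2 differences of 1.56, 1.92, 1.44 and 1.15. The medians of these lists were 0.29, 0.39, 0.27 and 0.26. Counts of 1 gene in lists of this size give no share to set apart from the 3.18% of all genes called higher. Without replicate 2 the lists had 2, 4, 6 and 6 genes higher and 1, 1, 0 and 5 lower. Of 26 genes of the aspartate, serine, glycine, glutamate and proline routes, SER3 (2.54), which starts serine synthesis, GLT1 (2.39), glutamate synthase, and GDH3 (1.56), a glutamate dehydrogenase, were higher, while the median was -0.17. None of the 7 histidine genes was called and their median was -0.05. Without replicate 2, 6 of the 26 were higher and 2 lower, and 1 histidine gene was lower. The medians of both of those lists became positive with scaling by library size alone.

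Purine genes were lower with the vector where they were called. ADE17, an enzyme of the last steps to inosine monophosphate, was at 82.2, 56.5 and 44.5 CPM with the vector and at 432 and 460 CPM without plasmid. The log2 difference was -2.87 (SE 0.31, edgeR adjusted p = 0.0098) and -2.84 without replicate 2. ADE16, its isozyme, was at 370, 415 and 341 CPM against 292 and 315 CPM and was not called. ADE12, adenylosuccinate synthase, ADE1, which acts earlier in the route, and HPT1, a salvage enzyme for hypoxanthine and guanine, had log2 differences of -1.83, -1.66 and -1.67. ADE4, the enzyme of the committed step, was at 78.2, 86.4 and 71.6 CPM against 228 and 175 CPM, and ADE6 and MTD1 were also lower. In all, 7 of 22 purine genes were lower, against 1.39% of all genes, none was higher and the median was -1.19. Without replicate 2, 13 were lower, against 8.83% of all genes, and the median was -1.03.

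TGACTC was searched on both strands of the same windows and was present in 755 of 5981 promoters (12.6%). It was in all 11 promoters searched of the arginine group and in 15 of the 21 searched of the purine group, groups whose called genes differed in opposite directions. A window of each is shown for this reason, with the match in capitals.
ARG4 (chrVIII:141531-141626, minus strand, 179 to 174 bases before the start codon): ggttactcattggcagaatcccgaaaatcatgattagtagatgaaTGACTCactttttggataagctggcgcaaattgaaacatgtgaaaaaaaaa
ADE17 (chrXIII:509407-509502, minus strand, 177 to 172 bases before the start codon): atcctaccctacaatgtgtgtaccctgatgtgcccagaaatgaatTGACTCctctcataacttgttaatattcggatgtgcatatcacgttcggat

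Among the 15 pyrimidine genes, URA3 and URA10 were higher and URA4 was lower. URA3 is deleted in the strain and carried by the vector, so its call was set by the design. URA10, a minor orotate phosphoribosyltransferase, was at 50.6, 21.7 and 48.8 CPM with the vector against 5.16 and 8.70 CPM, a log2 difference of 2.54 (SE 0.48, edgeR adjusted p = 0.039). URA4, dihydroorotase, was at 122, 124 and 126 CPM against 242 and 297 CPM, a log2 difference of -1.12 (SE 0.22, edgeR adjusted p = 0.040). The median of the list was -0.39. Without replicate 2, 2 were higher, again URA3 and URA10, and 4 were lower, with a median of -0.18.

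CHA1 had the largest fall of any called gene. It encodes the serine and threonine deaminase through which yeast uses these amino acids as nitrogen source, and it is known to be induced by them. On chromosome III (R64 positions 15798 to 16880), it was at 6.23, 4.07 and 4.67 CPM with the vector and at 260 and 286 CPM without plasmid. The groups were far apart, with a log2 difference of -5.78 (SE 0.28, edgeR adjusted p = 0.00048) and -5.68 without replicate 2. It was called in every alternative that was run.

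Genes of nitrogen use and amino acid uptake were higher with the vector where they were called. DAL80, a repressor of nitrogen catabolic genes, was at 11.1, 10.1 and 11.3 CPM with the vector and at 0.67 and 0.91 CPM without plasmid, that is 8 and 12 counts in the latter libraries. Its log2 difference was 3.76 (SE 0.48, edgeR adjusted p = 0.016). DAL80 passed the filter on low counts only through the vector libraries, so its place among the higher genes was partly set by the filter. MEP2, an ammonium permease, was at 109, 48.6 and 110 CPM against 18.6 and 16.9 CPM, a log2 difference of 2.33 (SE 0.41). DAL3, of allantoin breakdown, made the count 3 of 33 higher and none lower, with a median of 0.82. Without replicate 2 the count was 14 higher and the median 1.01. Of 26 genes of amino acid and peptide uptake 4 were higher and none was lower, with a median of 0.79. AGP1, a broad amino acid permease, DIP5, for glutamate and aspartate, and BAP2, for branched chain amino acids, had log2 differences of 1.92, 1.81 and 1.39, and SAM3 was the remaining member. Without replicate 2, 10 uptake genes were higher and 3 were lower, with a median of 0.67. The shares over all genes were 3.18% called higher, and 9.11% higher and 8.83% lower without replicate 2.

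General stress genes that were called were higher with the vector, among them enzymes of glycogen and trehalose. GLC3, the glycogen branching enzyme, was at 312, 307 and 379 CPM with the vector and at 26.0 and 42.0 CPM without plasmid. The log2 difference was 3.29 (SE 0.33, edgeR adjusted p = 0.0094) and 3.32 without replicate 2. The glycogen synthases GSY1 and GSY2 had log2 differences of 2.82 (SE 0.49) and 2.71 (SE 0.37). CTT1, cytosolic catalase, was at 307, 422 and 409 CPM against 32.8 and 83.8 CPM, a log2 difference of 2.70 (SE 0.46, edgeR adjusted p = 0.028). The other members called were HSP26, HSP42, HSP78, SSA3, TPS2, NTH1, GAD1 and UBI4. Over all genes 3.18% were called higher, 22.0% lay entirely higher, and 9.11% were called higher without replicate 2. In all, 12 of 39 general stress genes were higher and none was lower. All vector libraries lay above both others in 23 of them, and the median was 1.10. Without replicate 2, 25 were higher, none was lower and the median was 1.22. HSP12, a small heat shock protein often used as a marker of this response, was at 967, 574 and 1078 CPM against 524 and 1090 CPM, so its groups overlapped. Of 20 cytosolic chaperone genes, SSE2 and BTN2 were higher (1.30 and 1.65) and the median was 0.12.

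A few genes of carbon metabolism were much higher with the vector. CIT2, the peroxisomal citrate synthase, was at 325, 167 and 411 CPM with the vector and at 18.1 and 26.8 CPM without plasmid, a log2 difference of 3.75 (SE 0.48, edgeR adjusted p = 0.016). ALD4, mitochondrial aldehyde dehydrogenase, PCK1, of gluconeogenesis, and PYC1, pyruvate carboxylase, were higher by 2.34, 2.18 and 2.10 on the log2 scale. These made 4 of 35 genes of the TCA cycle, glyoxylate route and gluconeogenesis, with none lower and a median of 0.47. Without replicate 2, 11 were higher and 1 was lower, with a median of 0.57. TDH1, an isozyme of glyceraldehyde phosphate dehydrogenase, was at 5220, 3675 and 5809 CPM against 531 and 1198 CPM, a log2 difference of 2.50 (SE 0.47, edgeR adjusted p = 0.036). With ADH5 (2.14) it made 2 of 26 glycolysis and fermentation genes higher, and the list median was 0.09. None of 23 hexose transport genes was called, and their median was 0.12. Without replicate 2 the glycolysis list had 4 genes higher and 4 lower with a median of 0.29, and the hexose transport list had 3 higher. For all genes, 3.18% were called higher, and 9.11% were higher and 8.83% lower without replicate 2.

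Genes for making ribosomes were lower with the vector where they were called. RPL17B, of the large subunit, was at 1335, 680 and 1199 CPM with the vector and at 3786 and 3697 CPM without plasmid, a log2 difference of -1.80 (SE 0.36, edgeR adjusted p = 0.041). Over all genes 1.39% were called lower, 22.5% lay entirely lower, and 8.83% were called lower without replicate 2. Of 138 ribosomal protein genes, 7 were lower and none was higher. The vector libraries lay below both others in 127 of them, and the median was -1.04. Without replicate 2, 98 were lower and 1 was higher, with a median of -0.82. Many of these genes are near-identical pairs, and counts that include multiple alignments can be split between the copies. Among 88 ribosome biogenesis genes 11 were lower and none was higher, with a median of -0.86, and without replicate 2 the number lower was 54. ERB1, a large subunit assembly factor, was at 130, 138 and 96.3 CPM against 549 and 329 CPM, and IMP4, a small subunit processome factor, was at 62.9, 63.9 and 56.1 CPM against 175 and 184 CPM. Their log2 differences were -1.86 (SE 0.31) and -1.56 (SE 0.20). Mitochondrial ribosomal proteins had 4 of 73 genes lower, none higher and a median of -0.53. None of 31 translation factors was called, and their median was -0.46. Without replicate 2, 9 of them were lower and 1 was higher, with a median of -0.18, and 21 of the mitochondrial ribosomal proteins were lower. Under scaling by library size alone the medians of ribosomal protein, ribosome biogenesis and purine genes stayed negative.

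Genes on mitochondrial DNA were higher with the vector where they were called. COX1, a catalytic subunit of cytochrome c oxidase, was at 400, 317 and 464 CPM with the vector and at 132 and 133 CPM without plasmid, a log2 difference of 1.57 (SE 0.28, edgeR adjusted p = 0.030). Its row overlaps several intron-encoded genes. ATP6, of ATP synthase, had 56, 99 and 78 counts against 1 and 7. COX2 had 171 counts in all with the vector and 1 without plasmid, a ratio of 168 with an exact 95% interval of 29.8 to 6680 that covers counting error only. Only 4 of the 8 genes passed the filter on low counts, and 3 of those were higher. COX2 and ATP6 passed it only through the vector libraries, so the share of higher genes was partly set by the filter. The remaining tested gene, OLI1, a subunit of ATP synthase, had 129, 3 and 377 counts with the vector and 63 and 85 without plasmid, so its groups overlapped. It was called higher without replicate 2. VAR1 and COX3 were below the filter, with 0 to 9 counts and 0 counts with the vector against 1 and 2 and 0 and 1. Mitochondrial messages of yeast lack a poly(A) tail, as ribosomal RNA does, and the share of counts on ribosomal RNA was also higher in every vector library. YLR154C-G, which lies wholly within the ribosomal RNA repeat (chromosome XII), was at 3011, 2303 and 1940 CPM against 154 and 77.2 CPM, and YLR154W-B was higher as well, with a log2 difference of 3.88. The part of ribosomal RNA content in these results was not tested. Among 39 nuclear genes of the respiratory chain and ATP synthase, NDE2, ATP16 and ATP17 were higher (2.05, 1.68 and 1.38), while the median was -0.02 and became positive with scaling by library size alone. Without replicate 2, 6 were higher and 3 lower, with a median of 0.27. COX26, a small protein of cytochrome c oxidase outside that list, was at 34.9, 78.2 and 43.9 CPM against 1.75 and 2.27 CPM, a log2 difference of 4.69 (SE 0.49, edgeR adjusted p = 0.0096).

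Few iron, lipid and phosphate genes were called with all 5 libraries. FIT2, a cell wall mannoprotein that holds siderophore iron, was at 342, 358 and 305 CPM with the vector and at 61.5 and 51.9 CPM without plasmid, a log2 difference of 2.56 (SE 0.26, edgeR adjusted p = 0.0094). FIT3, of the same family, had a log2 difference of 1.90 (SE 0.37). FRE1, a surface reductase for iron and copper, was lower, at 21.0, 12.3 and 17.0 CPM against 56.7 and 72.7 CPM. The 32 iron genes had a median of 0.46, and these were the 3 called. Without replicate 2, 11 iron genes were higher and 1 was lower, with a median of 0.71. OLE1, the fatty acid desaturase, was at 370, 503 and 402 CPM against 90.4 and 117 CPM, a log2 difference of 2.04 (SE 0.29), and with FAA1 (1.81) it made 2 of 9 fatty acid genes higher, with a median of 0.61. Of 29 ergosterol genes, ERG13 (1.61), near the start of the route, was higher, while ERG6 (-1.79) and ERG3 (-1.16), near its end, were lower, and the median of -0.16 changed sign with scaling by library size alone. The phosphate list had 2 of 21 genes higher and a median of 0.59. These were SPL2 (1.97), which limits low-affinity phosphate uptake, and CTF19 (2.17), a kinetochore protein. Without replicate 2, 8 of the 21 were higher and none was lower, with a median of 0.65. All vector libraries lay above both others in 13 iron genes and in 13 phosphate genes, and below both in 4 and 1. Over all genes 22.0% lay entirely higher and 22.5% entirely lower, and 9.11% were called higher without replicate 2. THI4 (1.79) of 16 thiamine genes and BNA1 (1.72) of 21 biotin, NAD and pyridoxine genes were higher, with list medians of 0.08 and 0.37. Without replicate 2, 1 thiamine gene was higher and 2 were lower, 4 of the biotin, NAD and pyridoxine list were higher, and 3 ergosterol genes were higher and 3 lower.

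Cell surface and vacuolar genes included further large differences. GSC2, an inducible subunit of the glucan synthase that builds the cell wall, was at 743, 810 and 841 CPM with the vector and at 102 and 84.9 CPM without plasmid. The log2 difference was 3.09 (SE 0.30, edgeR adjusted p = 0.0094) and 3.05 without replicate 2. With TIR2, a mannoprotein (1.81), it made 2 of 40 cell wall genes higher, and the list median was 0.21. Without replicate 2, 10 were higher, against 9.11% of all genes, and 1 was lower, with a median of 0.20. PBI2, an inhibitor of vacuolar proteinase B, was at 77.6, 82.8 and 86.5 CPM against 10.5 and 12.1 CPM, a log2 difference of 2.86 (SE 0.24, edgeR adjusted p = 0.0071). PRB1, that proteinase, was also higher (1.70), and these were 2 of 11 vacuolar genes, with a median of 0.69 that was 0.62, with 3 higher and 1 lower, without replicate 2. AGA1, the anchor subunit of the a-agglutinin through which a cells adhere in mating, was at 32.7, 38.5 and 32.2 CPM against 203 and 120 CPM, a log2 difference of -2.23 (SE 0.28, edgeR adjusted p = 0.016). AGA2, its adhesion subunit, had a log2 difference of -1.56 (SE 0.33) and was the only member called of 7 genes of a cells, whose median was -0.76. Without replicate 2, 1 of the 7 was higher and 2 were lower, with a median of -0.55. None of the 3 genes of alpha cells tested was called.

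The transporter and oxidative stress genes at the centre of the study did not pass the test between the baseline cultures. YAP1, the oxidative stress regulator, was at 99.4, 64.7 and 76.6 CPM with the vector and at 64.4 and 72.1 CPM without plasmid. FLR1 and ATR1, its multidrug transporter targets, had log2 differences of 0.20 (SE 0.26, edgeR adjusted p = 0.69) and 0.00 (SE 0.29). YCF1, a vacuolar glutathione conjugate transporter, was at 107, 101 and 97.3 CPM against 152 and 155 CPM, a separation of the groups with an edgeR adjusted p of 0.13. PDR5 and SNQ2, pumps for many drugs, had log2 differences of -0.29 (SE 0.29) and -0.20 (SE 0.25). SOD1, superoxide dismutase, had a difference of 0.05 (SE 0.34), SKN7, a partner of Yap1, one of 0.11 (SE 0.76) at 0.85 to 2.55 CPM, and ACT1, actin, one of -0.17 (SE 0.45). TSA1, the main peroxiredoxin, was at 1680, 1201 and 1803 CPM against 3216 and 3546 CPM, with an edgeR adjusted p of 0.085 that became 0.0046 without replicate 2. GPX2, a glutathione peroxidase, was the only called gene of 33 oxidative stress genes and Yap1 targets (-1.95, SE 0.38), whose median of -0.11 changed sign with scaling by library size alone. Without replicate 2, 3 of these 33 were higher and 4 lower, and the median was 0.00. None of 24 drug transporter genes was called, and their median was 0.16. Without replicate 2, 5 of them were higher, against 9.11% of all genes, and none was lower, with a median of 0.35. A gene that missed the threshold is not shown to be equal in both cultures.

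Other lists held few calls. RPN9, of the proteasome lid, was lower (-1.02) among 33 proteasome genes with a median of -0.31. None was called of 10 histone genes (-0.61), 23 cell cycle regulators (-0.27), 18 deoxynucleotide and replication genes (-0.24) or 10 actin and tubulin genes (0.06), with list medians in parentheses. Without replicate 2 the histone median was -0.13 with 1 gene lower, and the median of cell cycle regulators was -0.04 with 1 higher and 3 lower. The replication list then had 1 gene higher, and the actin and tubulin list had 1 higher and 1 lower. INO1 was the only called gene of the 14 on the list of protein folding in the endoplasmic reticulum, which has it as a known target of the unfolded protein response, and the list median was -0.03. The medians of the proteasome, replication and protein folding lists became positive with scaling by library size alone. The remaining genes with large falls were YBL028C (-2.13), RRS1 (-1.87), a ribosome assembly factor, NRP1 (-1.90) and RFU1 (-1.87), an inhibitor of a deubiquitinating enzyme. Large falls were also seen in YMR119W-A (-2.21) and YPR126C (-1.86), rows that had no partner in the annotation used here. Whether these rows overlap other genes was not checked. YJL133C-A, of unknown function, was higher (3.78). The 2-micron plasmid genes were not analysed here.

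**Figure D4:**
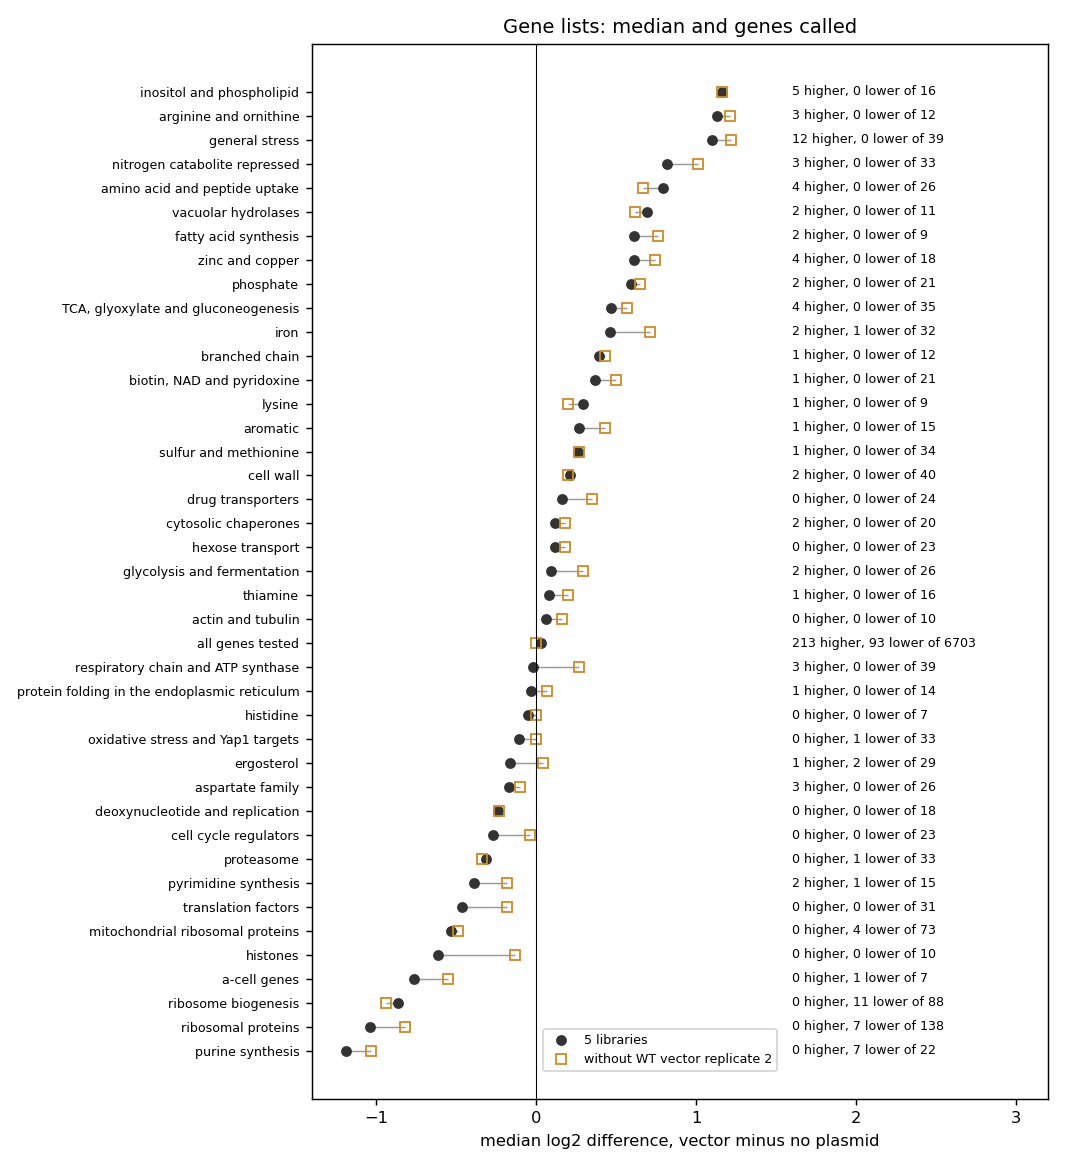
Median log2 difference, vector minus no plasmid, of each gene list with 5 or more genes tested, other than the strain and plasmid markers. Black points are from 5 libraries and open squares are without WT vector replicate 2, with the number called higher and lower in the fit of 5 libraries. Inositol, arginine and general stress genes lie near 1.1 and purine and ribosomal protein genes below -1.0, while all genes tested have a median of 0.03.

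The other libraries of the series, which took no part in the fit, are set beside these values on a scale over all 13 libraries. ZRT1 was at 1463 to 2182 CPM in the 6 other plasmid libraries and at 21.4 to 36.6 CPM in the caffeine-treated libraries without plasmid. ZPS1 was at 205 to 311 CPM and at 9.55 to 11.2 CPM in the same sets. For both zinc genes, then, plasmid libraries of every genotype were high and all libraries without plasmid were low. CHA1 was at 3.66 to 6.80 CPM in the other plasmid libraries, and at 916 to 1165 CPM in the caffeine-treated ones. ARG1 was at 159 to 190 CPM in the other plasmid libraries and at 30.2 to 31.1 CPM with caffeine, against 19.2 to 23.3 CPM without plasmid and caffeine. Other genes were also above untreated WT without plasmid in the caffeine-treated libraries. INO1 was at 189 to 600 CPM in the other plasmid libraries and at 39.4 to 79.9 CPM with caffeine, against 2.30 to 4.39 CPM in untreated cells without plasmid. CIT2 was at 385 to 662 CPM and CTT1 at 324 to 476 CPM in the other plasmid libraries, and with caffeine they were at 1409 to 1521 CPM and 1580 to 1828 CPM. ADE17 was low everywhere but in the untreated libraries without plasmid, with 29.1 to 68.1 CPM in the other plasmid libraries and 37.7 to 48.3 CPM with caffeine against 460 to 485 CPM.

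**Figure D5:**
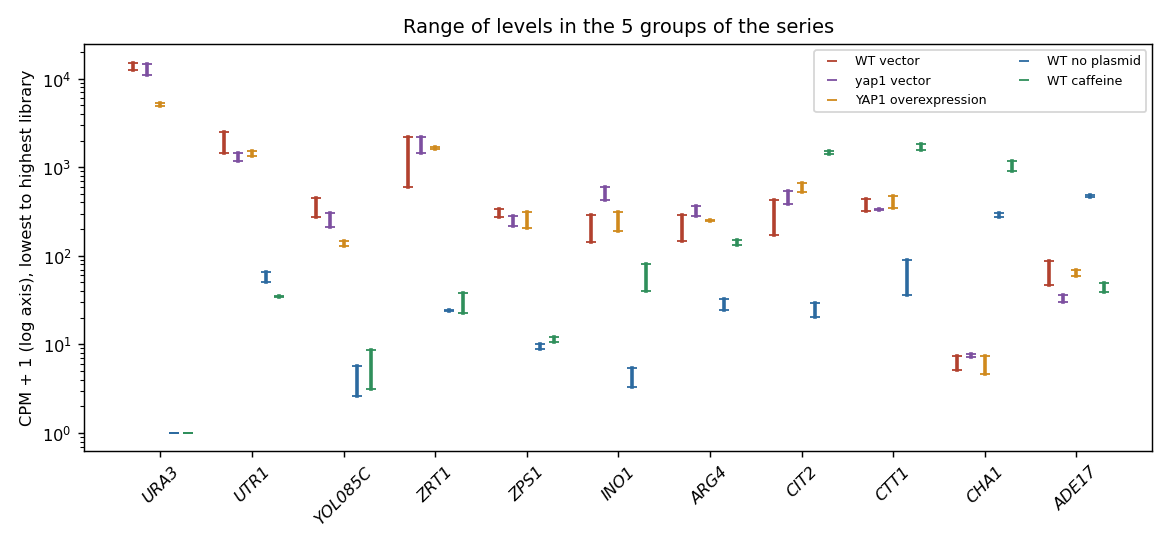
Lowest to highest library of each of the 5 groups of the series for 11 genes, as CPM + 1 on a log axis. For URA3, UTR1, YOL085C, ZRT1 and ZPS1 the plasmid groups are high and both groups without plasmid are low, for CHA1 the order is the opposite, and ADE17 is high only in untreated WT without plasmid.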

How the data were processed

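The deposited values are raw read counts per gene, 1 list per library and not normalized, from QuantSeq 3′ mRNA libraries of *S. cerevisiae* BY4741. None of the 5 libraries compared was labelled as treated. The authors aligned reads with Bowtie2 and counted unique and multiple alignments with the coverage tool of bedtools. The submitters' processing notes name sacCer3, and the gene annotation was not given in the sources used here. Counting over multiple alignments can blur near-identical genes, and no use of strand is stated.

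Lists were joined by position into 7125 rows, of which 169 had changed names and 6128 were paired with genes of the R64 annotation. MIR1 is a row of the plasmid files alone and was dropped. The 15 ribosomal RNA rows (RDN and TAR1) were left out, which left 7110 rows. Genes that passed filterByExpr were tested with edgeR 4.0.16 (R 4.3.3) by TMM scaling, a robust quasi-likelihood fit and Benjamini-Hochberg adjustment at 0.05 over all genes. The standard error is the log2 difference divided by the root of F. Alternatives used DESeq2 1.42.0, limma 3.58.1, other scalings and filters, and each library left out. The code was tested on simulated counts.

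The members of the comparison and the 44 gene lists were chosen with earlier results of these data known, so lists are described by counts and medians without a set test. Named genes were up to 12 of the largest called rises and falls among genes averaging 10 CPM or more whose libraries fall in separate ranges, up to 4 called members per list and direction, the marker lists, and YAP1, FLR1, ATR1, YCF1, PDR5, SNQ2, SOD1, TSA1, SKN7 and ACT1. Genes named outside this rule, such as ZAP1, ZRT2, ITR1, CHO1, CHO2, ADE16, ADE4, HSP12 and CWP2, were chosen after their values were seen. Promoters were the 500 bases before the start codon. One further table holds genes of another organism and comparison columns and was not used.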

Additional observations from a re-analysis of the deposited data

Results flagged for a closer look

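The ribosomal RNA rows left out of the comparison differed between the groups. They took 67.0% ± 7.0 (SD, n = 3) of all counts in the vector libraries and 16.6% ± 2.7 (SD, n = 2) in those without plasmid. They took 43.8% to 64.0% in the 6 other plasmid libraries and 22.7% and 27.4% with caffeine. The share was looked at again because it is a signal in data that no comparison used.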

How the results depend on the processing

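Among the genes called with all 5 libraries, no gene changed direction under any of the 17 alternatives. That fit called 306 genes. DESeq2 called 968 (566 higher, 402 lower), scaling by library size alone 571 (526 higher, 45 lower) and a fit of all 13 libraries 1548 (788 higher, 760 lower). The replicate number as a block gave 187 calls (148 higher, 39 lower). The deviations of same-numbered libraries from their group means correlated at 0.072 and 0.029. The deviations of the 2 no-plasmid libraries mirror each other, so these values cannot show whether the numbers pair the libraries. The pairing was not used in the main fit. With 1 library left out, calls ranged from 2 to 1197, with 1 to 608 higher and 1 to 589 lower. The highest counts came without WT vector replicate 2, the lowest without WT no plasmid replicate 1. Where a single library was left in the no-plasmid group, it was assumed to vary like the vector libraries. The other alternatives (limma voom, DESeq2 size factors, upper quartile, ribosomal RNA rows kept, other filters, identical names, the 10 most abundant rows left out) called 285 to 338 genes. The cause of these differences was not tested. The 116 named genes other than URA3 include some not called with all 5 libraries, such as YAP1 and ACT1, which had no call to lose. Of the 116, 35 lost their call with the block, 6 with library size alone, 5 with limma voom and 4 with DESeq2 size factors. Nearly all of the named genes that had a call lost it when any library other than WT vector replicate 2 was left out. Leaving out WT vector replicate 1 cost 83 of the 116 the call, and leaving out replicate 3 cost 91. Without replicate 2 none lost it and 5 gained it. Depth limits genes such as COX2, with 1 count in the no-plasmid group.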
